A study of Mus musculus with 18 samples.

Results

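How much of each microRNA (miRNA) seed family Argonaute 2 (Ago2) held in the wild-type mouse colon was set against how many Ago2-bound RNA sites matched that family, and against how many reads those sites gave. A seed family is a group of mature miRNAs with the same bases 2 to 8. Families were taken from the authors' annotation of the peaks, which lists for each peak the families whose seed it matches. A peak was counted for a family when it held an 8-mer match (seed bases 2 to 8 plus an A opposite base 1) or a 7-mer-m8 match (seed bases 2 to 8 alone), as these terms are usually defined. There were 75 such families with 134 of the 459 listed miRNAs, and 3255 of the 5554 merged peaks matched at least 1 of them. Comparisons across families used the 69 with a mean of at least 10 loaded reads and at least 10 peaks. The 6 families left out all had fewer than 10 peaks, so the filter used 1 of the values compared.

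An miRNA guides Ago2 to a messenger RNA by pairing of its seed with a complementary site, most often in the 3′ UTR, and the bound messenger is then repressed or degraded. Members of a family share the seed and so can bind the same sites, while the rest of the mature sequence differs. In the intestinal epithelium the miR-200 families, miR-192/miR-215 and miR-194 are known as abundant epithelial miRNAs, miR-200 through its repression of the Zeb transcription factors. The let-7 family is widely expressed and is known for targets such as Hmga2 and Ras genes.

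The libraries come from HEAP, a form of CLIP-seq that recovers a Halo-tagged Ago2 from UV-crosslinked tissue. The mice were C57BL/6, carried 1 Halo-Ago2 allele and Fabp-Cre (a Cre transgene named for a fatty acid binding protein gene), had wild-type K-Ras alleles (WT) and were 8 to 12 weeks old. The distal colon was scraped with a blade to enrich epithelium and given 3 UV exposures of 400 mJ per cm2. Of 18 libraries in 6 groups of 3, the 3 WT miRNA libraries (what Ago2 was loaded with) and the 3 WT pulldown mRNA libraries (the RNA sites it held) were used. The 9 libraries with the K-Ras-G12D allele and the 6 input libraries were not analysed here, so a high number of reads at a site and a high level of its transcript cannot be told apart. Halo-Ago2 and Fabp-Cre were shared by both genotypes, and no label ties a library to a mouse of its own. The p-values below therefore measure only the spread between these libraries, and those of limma take that spread over all families together.

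The mature sequences below are the most loaded members of the families on which the results turn, from RefSeq (GRCm38.p6), written 5′ to 3′ with the seed in capitals. The first lines, to let-7b, are abundantly loaded families, then come families whose sites took a larger share of reads than the miRNA did, then those with a smaller share.
miR-200c-3p: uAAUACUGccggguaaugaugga
miR-200a-3p: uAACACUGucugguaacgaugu
miR-30e-5p: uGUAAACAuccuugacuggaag
miR-194-5p: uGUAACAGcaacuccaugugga
miR-196b-5p: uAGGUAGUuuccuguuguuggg
let-7b-5p: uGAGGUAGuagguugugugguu
miR-22-3p: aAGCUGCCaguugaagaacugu
miR-29a-3p: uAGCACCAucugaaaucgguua
miR-148a-3p: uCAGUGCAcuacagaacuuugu
miR-130b-3p: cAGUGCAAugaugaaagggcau
miR-16-5p: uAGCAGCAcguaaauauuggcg
miR-103-3p: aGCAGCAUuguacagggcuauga
miR-24-3p: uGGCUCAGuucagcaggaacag
miR-484: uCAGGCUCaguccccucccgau
miR-19b-3p: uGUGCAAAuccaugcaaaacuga
miR-21a-5p: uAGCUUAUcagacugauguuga
miR-192-5p: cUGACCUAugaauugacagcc
miR-221-3p: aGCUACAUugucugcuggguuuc
miR-425-5p: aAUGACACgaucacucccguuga
The seeds of miR-200c and miR-200a differ inside the seed, so miR-200b, miR-200c and miR-429 formed 1 family (miR-200bc/miR-429) and miR-200a was placed with miR-141 (miR-141/miR-200a). Several seeds are the same letters moved along by a base or a pair of bases, which a later paragraph takes up: let-7 and miR-196, miR-103 and miR-16, miR-130b with miR-19b and miR-148a, and miR-24 with miR-484. In the RefSeq annotation miR-200c-3p lies at chr6:124718324-124718346 on the minus strand, let-7b-5p at chr15:85707325-85707346 on the plus strand, miR-29a-3p at chr6:31062673-31062694 on the minus strand and miR-22-3p at chr11:75463772-75463793 on the plus strand.

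The miRNA libraries held 437439 to 535932 reads and the pulldown libraries 54401 to 148770 reads in peaks, with pulldown replicate 2 the shallowest. The families held 96.6% ± 0.344 (SD, n = 3 libraries) of miRNA reads. The most abundant miRNAs outside them were miR-203-3p at 2483 ± 537 normalized reads and miR-101b-3p at 1370 ± 113. Site peaks held 64.0% ± 0.882 of peak reads. Of the 3255 site peaks, 742 overlapped the list of peaks called in WT and 2513 did not, but the 742 held 86.1% ± 0.937 of the reads in site peaks. All 9 epithelial marker miRNAs were present, with 24.03 to 29.2% of miRNA reads in the 3 libraries. Of the smooth muscle and stroma markers, 5 of 9 were listed, summing to 0.0369 to 0.0864%, with miR-199a-5p at 0 in 2 libraries; of the blood and endothelium markers 7 of 9 were listed, summing to 0.158 to 0.222%. The neural and enteroendocrine markers, 4 of 5 listed, summed to 2.04 to 2.35%, of which miR-375-3p was 82.4 to 91.4%. These values bear on the labelled tissue, colonic epithelium, and their part in the results below was not tested.

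The miR-200bc/miR-429 family was the most loaded, with 61364, 39705 and 37536 normalized reads in miRNA libraries 1 to 3, and was split between miR-200c-3p at 44.7%, miR-429-3p at 28.6% and miR-200b-3p at 26.7%. The miR-30 family, led by miR-30e, miR-30a and miR-30d, followed with 41799, 44578 and 32876 reads. Library 1 was the highest for miR-200bc/miR-429 and library 2 for miR-30, so the order of these families differed between libraries and their ranges overlapped.

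Below them, miR-21, an miRNA best known from cancer and inflammation, had 26155, 22019 and 19853 reads. The epithelial miR-194 had 19625, 24797 and 15668 reads, and miR-192/miR-215, transcribed with miR-194 in shared clusters, had 23670, 16472 and 16475. The miR-27 family had 17815, 24822 and 16166 reads. These 4 families overlapped in range, while every library of miR-30 was above every library of miR-21.

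The next families were miR-196, encoded in the Hox clusters, at 14982 ± 1181 (SD, n = 3), miR-26 at 13718 ± 1180, miR-141/miR-200a at 13266 ± 3287, let-7 at 12185 ± 2703, miR-19 at 11224 ± 1100 and the miR-17 family (miR-17, miR-20, miR-93 and miR-106) at 9265 ± 1080. Among the 12 steps down this order from the most loaded family, 9 joined families whose ranges overlapped. The 10 most loaded families held 58.7% ± 2.68 of all miRNA reads. Within let-7 the reads came from let-7b-5p (35.4%), let-7i-5p (27.7%) and let-7c-5p (19.98%), with let-7e-5p at 8.91 ± 4.78 reads.

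The number of matched peaks gave another order. The let-7 family had the most, with 454 peaks in the merged list, followed by miR-200bc/miR-429 with 297, miR-194 with 273, miR-15/miR-16 with 257, miR-29 with 201, miR-24 with 183, miR-22 with 159, miR-17 with 154, miR-196 with 134, miR-141/miR-200a with 116, miR-27 with 102 and miR-103/miR-107 with 100. Of the 10 most loaded families 5 were also among the 10 with the most peaks. The 10 most loaded ranged from 32 peaks (miR-192/miR-215) to 454 (let-7), and the 10 with the most peaks ranged in loading from 1159 reads (miR-29) to 46202 (miR-200bc/miR-429).

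**Figure D1:**
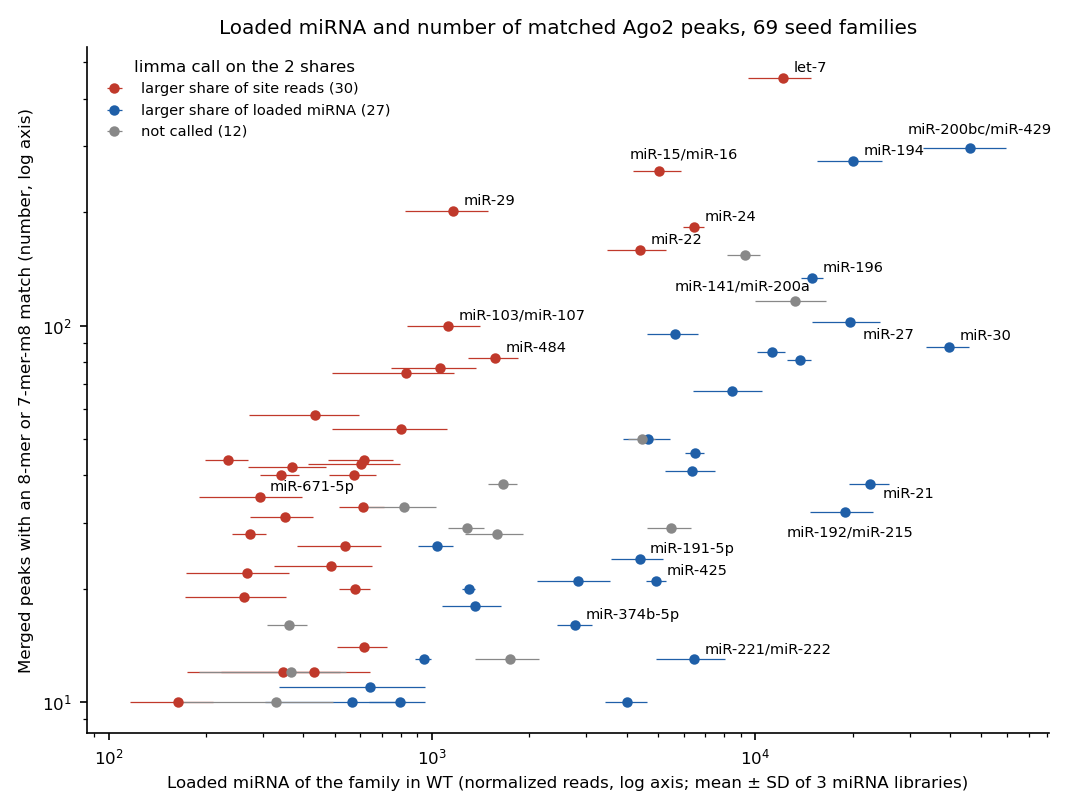
Each point is 1 of the 69 seed families; the horizontal axis is its summed loaded miRNA in WT (normalized reads, log axis, mean ± SD of 3 miRNA libraries) and the vertical axis its number of merged peaks (log axis), coloured by the limma call described further on. Families near 1000 loaded reads run up to the 201 peaks of miR-29, while miR-21 and miR-192/miR-215, among the 6 most loaded, have 38 and 32.

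Across the 69 families, loading and number of peaks had a Spearman rho of 0.543 and a Pearson r of 0.577 on log2 values. This is a description over families that share libraries and, in part, peaks, and so are not independent. In order of loading, the upper 23 families had a median of 85 peaks (13 to 454), the middle 23 a median of 28 (10 to 201) and the lower 23 a median of 23 (10 to 58). The ranges of the 3 groups overlapped.

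Peaks per 1000 loaded reads ran from 1.68 for miR-21 to 188 for the little-loaded miR-30-3p, with miR-130/miR-301 at 134 and miR-671-5p at 120. The families that follow are chosen examples and not the top of this range. The miR-29 family, known for collagen and DNA methylation targets, had 173 peaks per 1000 loaded reads, miR-148/miR-152 had 90.4, miR-103/miR-107 had 89.1, miR-15/miR-16 had 51.2, let-7 had 37.3 and miR-24 had 28.3. At the other end miR-200bc/miR-429 had 6.43, miR-30 had 2.21, miR-192/miR-215 had 1.70 and miR-21 had 1.68. Since peaks are in the merged list whether or not WT reads fell in them, these are counts of annotated sites and not of sites read in WT: 1853 of the 3255 site peaks had reads in all 3 WT pulldown libraries and 292 had none.

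Reads at the sites had a rho of 0.889 with the number of peaks over 69 families. A family's site reads are summed over those same peaks, so this value is in part built in. With loading, which comes from separate libraries, site reads had a Spearman rho of 0.558 and a Pearson r of 0.548. For this reason the correlation with peaks and that with loading cannot be ranked against each other. In the 3 libraries taken by number the rho of loading with site reads was 0.542, 0.531 and 0.562, and with miRNA and pulldown libraries of different numbers it lay between 0.522 and 0.555.

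The miR-22 family had the most site reads, 60954, 44371 and 41719 in pulldown libraries 1 to 3, and 93.9% of them were in 1 peak. That peak lies at chr17:39847480-39847543 on the plus strand, is labelled as an exon of RP23-81C12.3, and sits inside the RefSeq entry Rn18s-rs5, an 18S ribosomal RNA pseudogene (chr17:39846354-39848202). It held 57529, 41980 and 38502 reads. Of the 21 peaks labelled with this clone or as 5S ribosomal RNA, some matched miR-26, miR-29, miR-146 and miR-153 as well. Without these peaks miR-22 had 3011 ± 547 site reads and ranked 11 of 69.

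Next was let-7 with 15733, 12175 and 14311 reads, above every other family but miR-22 in each of the 3 libraries. The miR-200bc/miR-429 family had 6929, 4362 and 8537 reads, miR-141/miR-200a had 6286, 4298 and 5917, and miR-194 had 5131, 4220 and 5971. The ranges of the last 3 overlapped, with library 2 the lowest in each.

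A run of families with similar totals came after them: miR-24 with 4865 ± 688 (SD, n = 3), miR-17 with 4631 ± 470, miR-29 with 4336 ± 914, miR-15/miR-16 with 4170 ± 741, miR-196 with 4113 ± 416, miR-30 with 3914 ± 830 and miR-148/miR-152 with 2754 ± 649. Of the 12 steps down the order of site reads 10 joined families whose ranges overlapped. The most loaded families that were low in site reads were miR-21 with 1161, 817 and 1454 reads and miR-192/miR-215 with 819, 539 and 940.

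**Figure D2:**
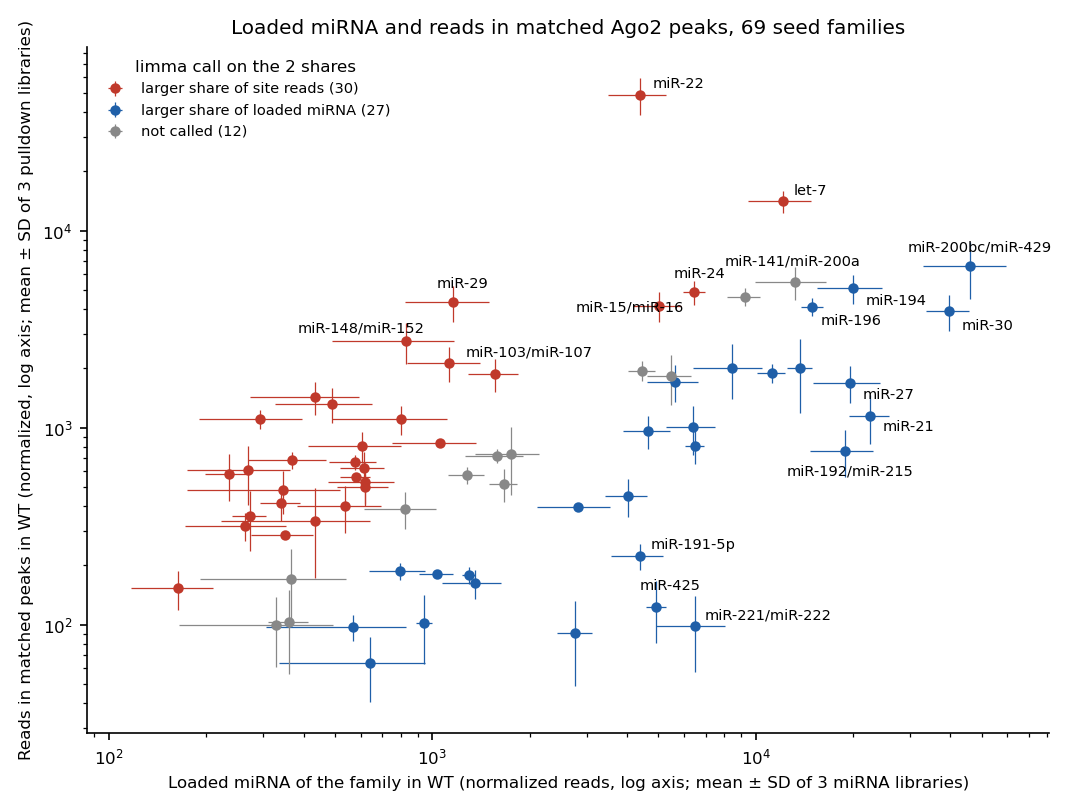
Each point is 1 of the 69 families; both axes are log, with loaded miRNA (normalized reads, mean ± SD of 3 miRNA libraries) across and reads in matched peaks (normalized, mean ± SD of 3 pulldown libraries) upwards, coloured by the limma call. miR-22 stands at 49015 site reads through its ribosomal RNA peak, and miR-221/miR-222 and miR-425 lie low at 99.1 and 124 site reads with 6476 and 4931 loaded reads.

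To ask whether a family took the same share of the site reads as of the loaded miRNA, each library was expressed as shares of the reads assigned to the 69 families, and pulldown was compared with miRNA libraries by limma on log2(share + 20), with shares per 1000000 family reads, with Benjamini-Hochberg adjustment. At an adjusted p under 0.05, 57 of 69 families differed, which is 82.6% of those tested: 30 (43.5%) had the larger share at the sites and 27 (39.1%) the larger share of the loaded miRNA. With most families called, being called sets no family apart, and sizes are given below in place of calls. In 57 of the 69 families the 3 pulldown libraries all lay above or all below the 3 miRNA libraries. Such separation, given below for some families, therefore sets no family apart either. The 30 families together held 12.2% ± 1.78 (SD, n = 3) of loaded reads and 64.7% ± 3.65 of site reads, and the 27 held 76.3% ± 3.18 and 23.9% ± 3.11. Both groups were formed from these same shares, so the direction of this contrast was set by the grouping and only its size is described.

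Ribosomal RNA peaks moved every share. Shares in a library sum to a fixed total, so families without such a peak moved up together when those peaks were left out. Their log2 differences rose from -2.11 to -1.55 for miR-30, from -0.72 to -0.16 for miR-194 and from 0.24 to 0.80 for miR-17. Calls gained or lost in this way reflect the total and not the sites of those families. Without ribosomal RNA peaks the 30 families held 49.4% ± 1.56 of site reads and the 27 held 34.4% ± 2.03. The median difference over the 69 families went from 0.09 to 0.65 on the log2 scale, and the calls became 37 at the sites and 22 in the loaded miRNA. With only peaks that matched 1 family the split was 13 and 31, so the balance between the directions depended on both choices. limma pooled the spread over all families: with the variance trend its prior degrees of freedom were infinite. A family's own spread between libraries thus had no weight in its SE or p. Without the trend they were 25.3 against 4 residual ones, and 57 families were again called. The shares come from libraries built in different ways, so preparation of the library and binding cannot be told apart.

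**Figure D3:**
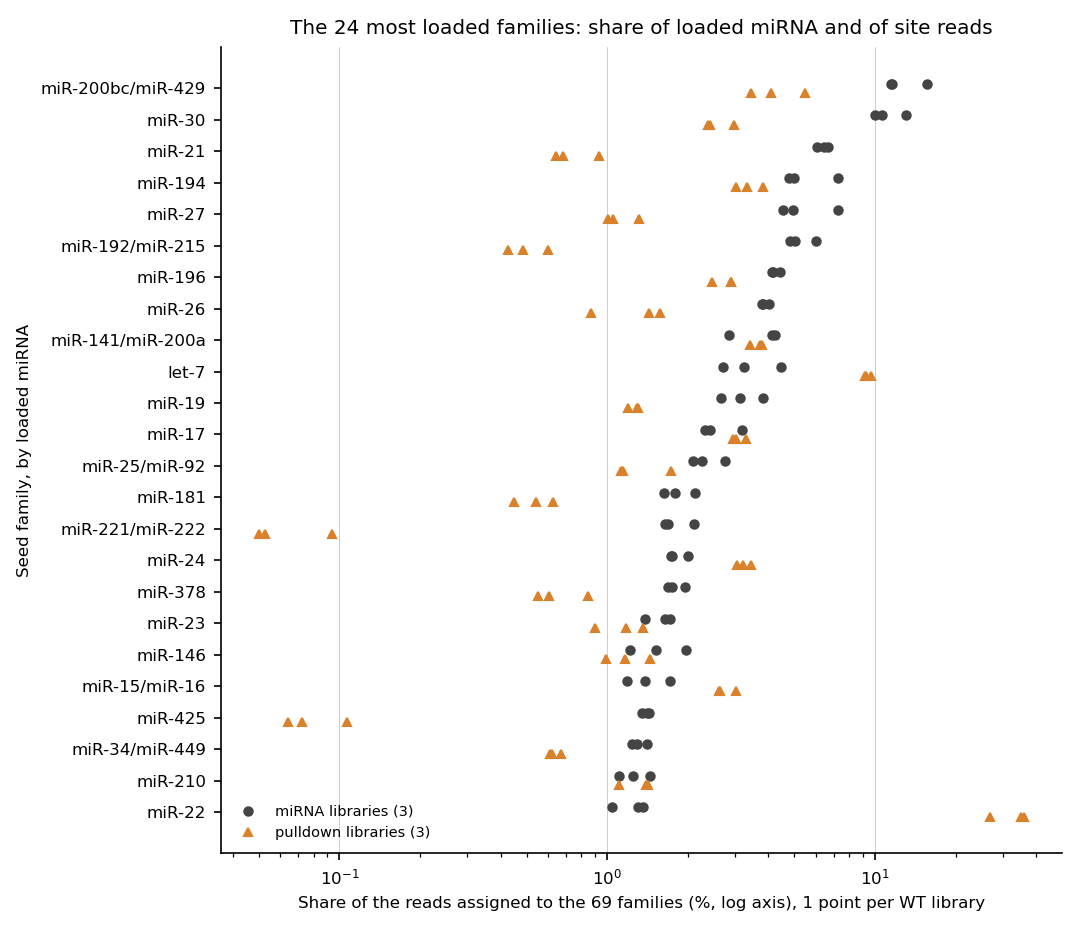
For the 24 most loaded of the tested families, circles give the share of loaded miRNA in each of 3 miRNA libraries and triangles the share of site reads in each of 3 pulldown libraries (%, log axis). The triangles of let-7, miR-24, miR-15/miR-16 and miR-22 lie to the right of their circles, those of miR-21, miR-192/miR-215, miR-221/miR-222 and miR-425 far to the left, and those of miR-141/miR-200a and miR-210 overlap them.

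Among families with the larger share at the sites, let-7 was the most loaded. It took 3.46% ± 0.893 (SD, n = 3) of loaded reads and 9.36% ± 0.236 of site reads, a log2 difference of 1.46 (SE 0.20, limma adjusted p = 1.38e-11), with all 3 pulldown libraries above all 3 miRNA libraries. The difference kept its direction and call in each of 23 alternatives, between 1.09 and 2.53. The more moderate differences of miR-24, 0.82 (SE 0.21), and of miR-15/miR-16, a family known for repressing cyclins and Bcl2, 0.97 (SE 0.21), kept their direction in all 23 but not their call. That of miR-24 was 0.44 in WT list peaks and 0.28 with only the most loaded member of each family. Since miR-24 has 1 member, in the latter only the total behind the shares changed for it. The miR-15/miR-16 difference was 0.27 with peaks of 1 family only, and none of these values passed the test.

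The 8 highest differences were those of miR-22, miR-671-5p, miR-29, miR-148/miR-152, miR-130/miR-301, miR-33-5p, miR-30-3p and miR-378a-5p. For miR-22 the log2 difference was 4.72 (SE 0.20), and 1.26 without ribosomal RNA peaks. For miR-29 it was 3.15 (SE 0.21): its loaded reads were 909, 1028 and 1539, or 0.334% ± 0.122, and its site reads 4997, 3292 and 4717, or 2.86% ± 0.224. The 3 libraries of each kind were apart, and the difference stayed between 2.47 and 3.83 over the alternatives.

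The miR-148/miR-152 family, known for targeting the DNA methyltransferase Dnmt1, had 1152, 474 and 862 loaded reads and 2726, 2119 and 3417 site reads, a log2 difference of 3.02 (SE 0.22). With peaks of 1 family only it was 0.60 and did not pass the test. The miR-130/miR-301 family had 515, 248 and 538 loaded reads and 1418, 1162 and 1718 site reads, a difference of 3.01 (SE 0.25) that turned to -0.61 with peaks of 1 family only. The less loaded miR-671-5p at 293 ± 103 loaded reads, miR-33-5p, hosted by a sterol regulator gene, at 488.8 ± 164, miR-30-3p at 234 ± 36.1 and miR-378a-5p at 268 ± 94.3 had differences of 3.17, 2.69, 2.49 and 2.39. With peaks of 1 family only these were 1.65, 0.95, 0.93 and 0.53, and those of miR-30-3p (limma adjusted p = 0.0563) and miR-378a-5p (limma adjusted p = 0.177) lost their call.

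The 8 lowest differences included 4 of the 6 most loaded families. The miR-30 family had 11.2% ± 1.58 of loaded reads and 2.59% ± 0.328 of site reads, a log2 difference of -2.11 (SE 0.20). The miR-21 difference was -3.10 (SE 0.21), that of miR-192/miR-215 -3.39 (SE 0.21) and that of miR-27 -2.29 (SE 0.21). In all 4 every pulldown library was below every miRNA library, and direction and call were kept in each of 23 alternatives. Over these the difference ran from -2.83 to -0.79 for miR-30, from -4.76 to -1.97 for miR-21, from -4.82 to -2.83 for miR-192/miR-215 and from -2.66 to -1.05 for miR-27.

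The lowest of all was miR-221/miR-222, known for repressing the cell cycle inhibitor p27: 8264, 5770 and 5393 loaded reads stood against 84.9, 66.7 and 146 site reads in 13 peaks, a log2 difference of -4.80 (SE 0.25). Next, miR-425 had 5291, 4901 and 4601 loaded reads and 123, 81.1 and 166 site reads in 21 peaks, a difference of -4.10 (SE 0.25). Both families were low at the sites in all 3 libraries. The remaining pair were miR-374b-5p, with 16 peaks and a difference of -3.77 (SE 0.28), and miR-191-5p, with 24 peaks and -3.03 (SE 0.23).

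The most loaded family, miR-200bc/miR-429, took 12.9% ± 2.38 of loaded and 4.34% ± 1.04 of site reads, a log2 difference of -1.58 (SE 0.20). With 8-mer peaks only it was -0.45 and lost its call. Its counterpart miR-141/miR-200a took 3.73% ± 0.777 and 3.63% ± 0.208, a difference of -0.02 (SE 0.20, limma adjusted p = 0.932), and its libraries overlapped. That value depended on the processing. It was 0.55 without ribosomal RNA peaks, a shift common to families without such peaks, and -0.39 when centred on the median family, a shift common to all. The miR-141/miR-200a difference was 0.87 in 3′ UTR peaks and 1.10 with miR-200a placed by name in the miR-200 family. Each of these values passed the test. Whether the differences of miR-200bc/miR-429 and miR-141/miR-200a themselves differ was not tested. miR-17, from clusters linked to cell division, also did not pass the test, at 0.24 (SE 0.20, limma adjusted p = 0.272), and became 0.80 without ribosomal RNA peaks and -0.68 with peaks of 1 family only, both past the threshold.

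For miR-194 the difference was -0.72 (SE 0.20, limma adjusted p = 0.000662), for miR-19 -1.32 (SE 0.21), for miR-26, known for targeting Ezh2, -1.63 (SE 0.21; -0.24 and not called with 8-mer peaks only), and for miR-34/miR-449, whose member miR-34a is induced by p53, -1.04 (SE 0.22). The miR-194 value was -0.16 without ribosomal RNA peaks (limma adjusted p = 0.411), where it lost its call. With 3′ UTR peaks only, miR-194 was at 0.08 and miR-19 at 0.01. The endocrine miR-375 had 7301, 7842 and 6070 loaded reads but only 8 peaks, and was not tested. miR-143, miR-145, miR-122, miR-1/miR-206, miR-133, miR-142, miR-150, miR-223, miR-451, miR-124 and miR-9 were not among the families of the site annotation.

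**Figure D4:**
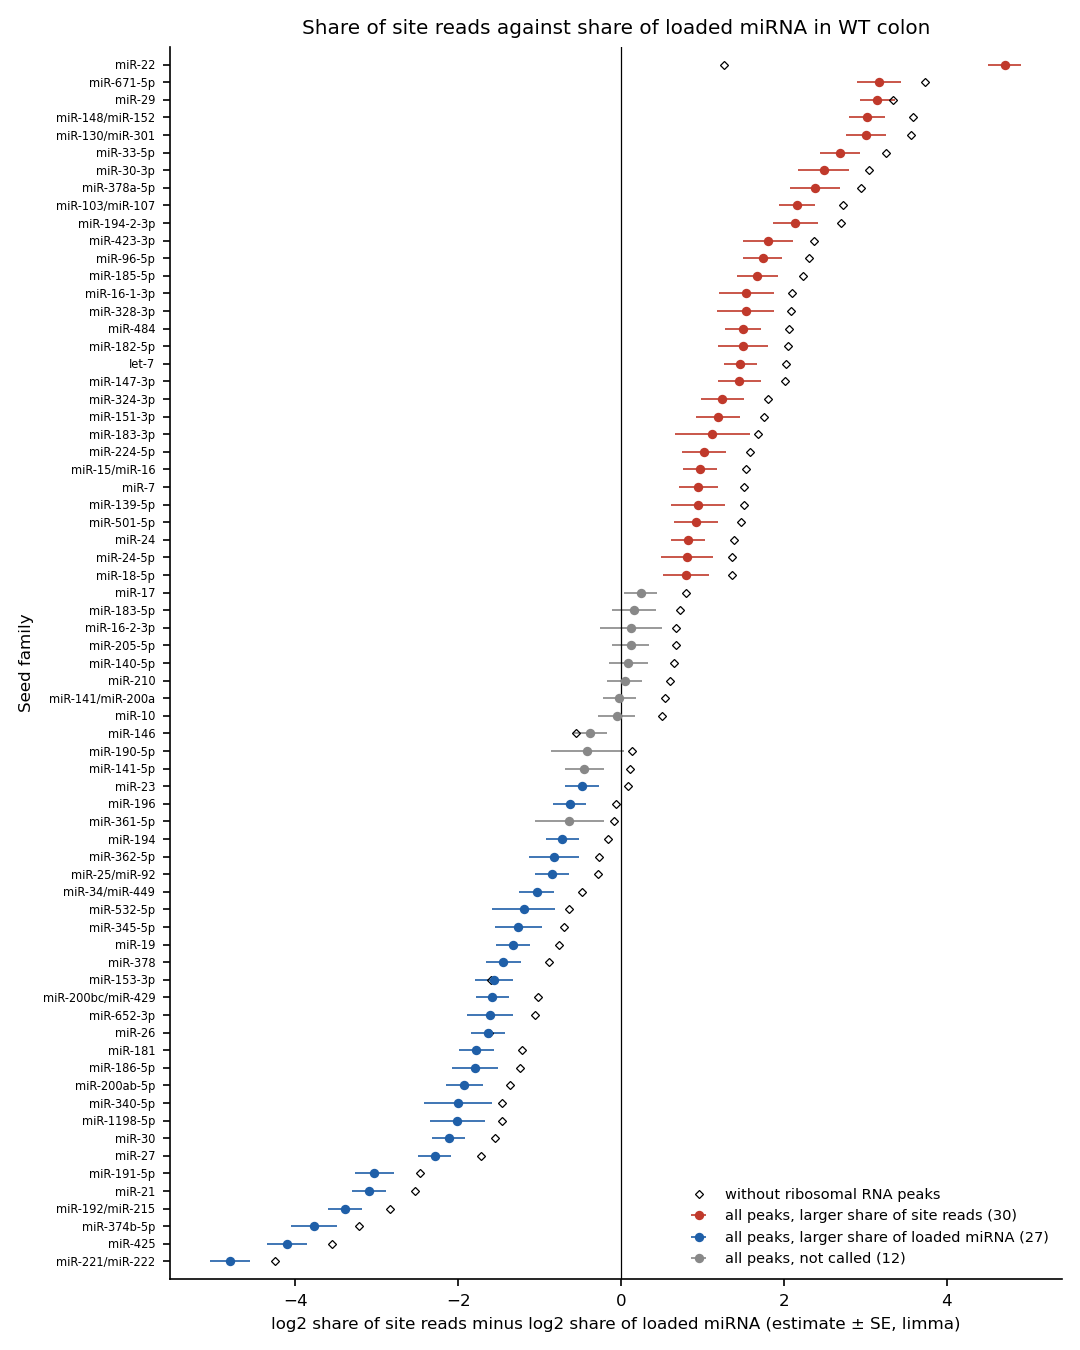
For each of the 69 families the filled point is the log2 share of site reads minus the log2 share of loaded miRNA (estimate ± SE, limma) over 6 WT libraries, and the open diamond the same without ribosomal RNA peaks. Values run from -4.80 for miR-221/miR-222 to 4.72 for miR-22, and removing ribosomal RNA peaks moves most families to the right and miR-22 to 1.26.

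Families whose seeds are shifted copies of each other shared many peaks. The let-7 seed GAGGUAG and the miR-196 seed AGGUAGU overlap in 6 bases, and 101 peaks matched both, 22.2% of the let-7 peaks and 75.4% of the miR-196 peaks. These held 22.1% ± 1.07 (SD, n = 3) of the let-7 site reads and 75.7% ± 4.77 of those of miR-196. Only 22 of the 134 miR-196 peaks matched no other family, and 4.48% of its peaks were 8-mer matches against 57.9% for let-7.

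The miR-103/miR-107 and miR-15/miR-16 families shared 53 peaks, 53.0% and 20.6% of their peaks, with 67.2% ± 4.22 and 34.3% ± 3.09 of their reads. The miR-130/miR-301 family shared 31 peaks with miR-19 (53.4% and 36.5%), 17 with miR-148/miR-152 (29.3% and 22.7%) and 16 with miR-17 (27.6% and 10.4%), and only 5 of its 58 peaks were its own. miR-24 and miR-484 shared 26 peaks, 14.2% and 31.7%. In all, 2289 site peaks matched 1 family and 966 matched several, up to 5, and a read in a shared peak was counted for each family.

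Restricting to peaks of 1 family left the correlation of loading with number of peaks at 0.570 and with site reads at 0.552. The difference of miR-103/miR-107 went from 2.17 (SE 0.22) to -0.02. That of let-7 stayed above 0, and those of miR-21, miR-192/miR-215, miR-221/miR-222 and miR-425 stayed below 0.

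**Figure D5:**
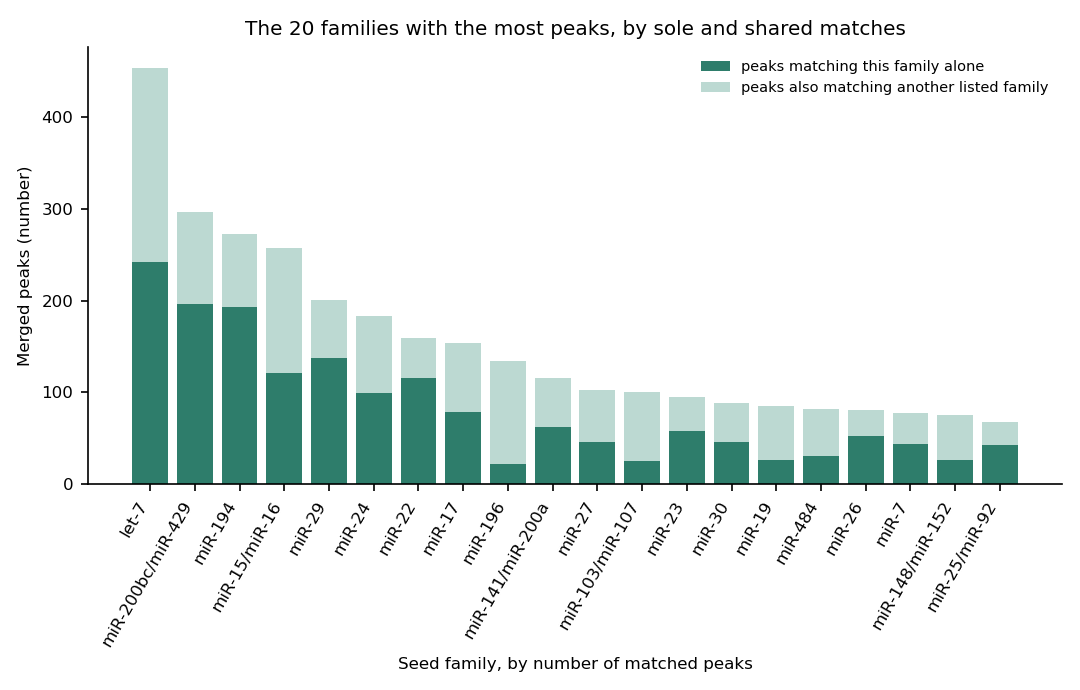
Bars give the number of merged peaks of the 20 families with the most peaks, dark for peaks matching that family alone and light for peaks that also match another listed family. let-7 has 242 sole peaks of 454 and miR-194 193 of 273, while miR-196 has 22 of 134 and miR-103/miR-107 25 of 100.

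The kind of match differed between families in a way the choice of families did not use. The share of peaks with an 8-mer match was 69.1% for miR-26, 65.7% for miR-25/miR-92, 62.7% for miR-27, 58.0% for miR-30, 57.9% for let-7 and 51.5% for miR-200bc/miR-429. It was 20% for miR-671-5p, 19.0% for miR-130/miR-301, 15.2% for miR-181 and 14.3% for miR-425, with a median of 30% over the 69 families. The upper 23 families by loading had a median of 41.2%, the middle 23 of 23.1% and the lower 23 of 30.4% (Spearman rho with loading 0.317, n = 69, as a description).

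Mean reads per peak were 27.5, 20.3 and 28.8 for the 1636 peaks with an 8-mer match and 56.7, 42.7 and 45.6 for the 1619 with only a 7-mer-m8 match. The 8-mer peaks were lower in all 3 libraries, with a mean log2 ratio of -0.93 and an exact sign permutation p of 0.25, two-sided, the smallest that 3 libraries allow. The direction rested on the ribosomal RNA peak, which is a 7-mer-m8 match: without ribosomal RNA peaks the log2 ratio was 0.35, in 3′ UTR peaks 0.47 and with medians 0.77, each with 8-mer peaks higher in all 3 libraries. The median was 6.203 ± 0.354 reads (SD, n = 3) per 8-mer peak and 3.67 ± 0.695 per 7-mer-m8 peak.

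Within families the pattern was mixed. Of 34 families with at least 10 peaks of each kind, 24 had the higher median at 8-mer peaks, and the mean was higher at 8-mer peaks in all 3 libraries for 17 and lower in all 3 for 14. In miR-30 the mean was 63.6, 43.6 and 67.5 reads at 8-mer peaks and 23.6, 21.0 and 31.9 at 7-mer-m8 peaks, with no overlap. In miR-21 it was 46.1, 27.4 and 67.1 against 20.4, 17.6 and 19.4. The miR-21 mean rested largely on 1 of its 15 8-mer peaks, in Taf7, with 471, 296 and 768 reads. The miR-21 medians were 10.4 at 8-mer and 6.31 at 7-mer-m8 peaks. In miR-141/miR-200a the 7-mer-m8 mean was the higher, 61.1, 42.6 and 58.0 against 42.9, 28.0 and 39.5, and the Atp1b1 peak described next is one of them.

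Much of a family's site reads could lie in few peaks. The highest peak held a median of 27.8% of the reads over the 69 families, and over 40% in 14 of them. For miR-200bc/miR-429 it was a peak in an exon of Fryl (chr5:73041543-73041595, minus strand) with 1579, 783 and 2611 reads, 25.1% of the family. The libraries of this peak differed more than 3-fold, with the third the highest.

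For miR-141/miR-200a a peak in the 3′ UTR of Atp1b1, the beta subunit of the sodium pump (chr1:164437963-164438016, minus strand), held 2673, 1779 and 1758 reads, 37.6% of the family. The next, in Lypd8, a secreted protein that keeps bacteria off the colonic surface, held 507 ± 121. For miR-194 a 3′ UTR peak of S100a14, a calcium-binding protein of epithelia (chr3:90528179-90528230, plus strand), held 983, 1226 and 1514 reads, 24.3%, and a peak in Trip11, a Golgi protein, held 185 ± 99.2. None of these peaks matched another listed family.

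The let-7 reads were spread more widely. The highest peak of let-7 alone, in the 3′ UTR of Ccdc71l (chr12:32379919-32379971, plus strand), held 705, 478 and 893 reads, 4.92% of the family. A peak in an exon of Hmgcs1, an early enzyme of cholesterol synthesis (chr13:119701159-119701212, plus strand), held 537, 484 and 464. The other Ccdc71l peaks included the highest of miR-30 and of miR-17, which was 1 shared peak with 760, 548 and 623 reads, and the highest of miR-425, with 10.6, 26.1 and 73.5.

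For miR-24 the highest peaks matching it alone were in Elf3, an epithelial ETS transcription factor, with 603 ± 194 reads, and in Ampd3, an AMP deaminase, with 290 ± 31.6. For miR-17 the highest peaks matching it alone were in Nckap1, a subunit of the actin-regulating WAVE complex, with 563, 458 and 91.5 reads, library 3 being far lower, and in Tnrc6b, a partner protein of Argonaute, with 146 ± 57.7. For miR-22 alone the peak after the ribosomal one was an 8-mer match in the 3′ UTR of Wdr82 with 358 ± 102. For miR-29 alone they were another peak of the ribosomal clone, in RP23-81C12.1, with 259 ± 54.0, and Serpinb1a, a neutrophil protease inhibitor, with 74.2 ± 12.0.

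In some families 1 gene held much of the total. Taf7, a general transcription factor subunit, held 44.7% of the miR-21 site reads, in a peak that also matched miR-29. Cnnm4, a magnesium transporter, held 44.8% of those of miR-192/miR-215 in a peak that also matched miR-30 and miR-378a-5p. An Actb peak held 82.4% of those of miR-10. Leaving out the highest peak of each family left 54 families called, 31 and 23, and the correlation of loading with site reads at 0.547.

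Textbook targets of 16 families were looked up by name, 84 pairs of family and gene. In 29 pairs the gene had some peak, in 11 it had a peak matching the family, and these came to 13 peaks, of which 4 overlapped the WT list. The highest was Met, a receptor tyrosine kinase, whose 3′ UTR peak (chr6:17571880-17571931, plus strand) matched miR-34/miR-449 and held 270, 200 and 219 reads. For miR-29, 3 peaks of Tet3, a DNA demethylating enzyme, held 36.0 ± 15.6, 9.87 ± 1.03 and 2.38 ± 2.17 reads, and Mcl1, an anti-apoptotic protein, held 11.1 ± 1.90.

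For let-7 the genes with a matching peak were Dicer1, the enzyme that makes mature miRNAs, at 29.7, 11.6 and 20.6 reads, Hmga2, a chromatin protein, at 21.2, 5.80 and 29.6, and Nras at 0, 0 and 6.44. The peak of Pdcd4, the best known miR-21 target, held 4.25, 0 and 1.29 reads, and that of Sec23a for miR-200bc/miR-429 held 2.12, 0 and 2.58. With 0 to 2 whole reads a library, whether Ago2 held these 2 sites was not resolved at this depth. Mapk14 for miR-141/miR-200a, Wee1 for miR-15/miR-16 and Cdkn1a for miR-17 held 5.65 ± 3.45, 7.56 ± 7.13 and 5.13 ± 4.64. No matching peak was listed for the named targets of miR-194, miR-192/miR-215, miR-26, miR-27, miR-30, miR-148/miR-152, miR-23 and miR-24, nor for Zeb1 and Zeb2.

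The base composition of the seed moved with the share difference. For the 61 tested families with a RefSeq seed, this used the log2 ratio of the mean shares, which differs slightly from the limma difference. The number of G and C among the 7 seed bases had a Spearman rho of 0.466 with that ratio and of -0.06 with loading. Its rho with the limma difference without ribosomal RNA peaks was 0.440. The median log2 ratio was -1.58 in the 18 families with 0 to 2, -0.62 in the 21 with 3, 0.94 in the 12 with 4 and 1.38 in the 10 with 5 to 7. The part of base composition in the differences was not tested. The share of peaks in 3′ UTRs had a rho of -0.11 with the limma difference and the share of 8-mer peaks one of -0.0015. The loaded share, itself a part of the difference, had one of -0.599.

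Sites of different families met on the same genes. The 3255 site peaks lay on 2010 gene labels, of which 933 carried sites of 1 family and 166 of 5 or more. Slc38a2, an amino acid transporter, carried sites of 13 families in 9 peaks, with 174, 113 and 232 reads in all, and Slc26a2, a sulfate transporter of the colon, sites of 12 families in 16 peaks, with 945, 562 and 802. Atp1b1 carried 11 families in 8 peaks, Btg2, an antiproliferative gene, 10 in 12 peaks and Muc2, the main secreted mucin of the colon, 10 in 11 peaks with 764, 527 and 434 reads. The long noncoding RNAs Malat1 and Neat1 carried 10 each, with 135 ± 18.6 and 33.8 ± 20.6 reads. Ccng2 carried 11 with only 28.8 ± 19.1 reads, so the number of families on a gene and the reads on it went separate ways there.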

How the data were processed

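The authors' notes name STAR 2.5.2b, DESeq2, mm10 and GRCm38 (per the submitters' processing notes); no source used here gives the peak caller or the counting rules. The deposited miRNA and peak tables hold a signal, reads divided by 1 factor per library; 100% of values came out as whole reads within 0.01. The authors' deposited peak lists carry a score per peak, used only to define the lists. Peak columns HF1 to HF3 were taken as the pulldown libraries. Overlap with the WT list needed 1 base. RefSeq held sequences for 408 of 459 miRNAs; 15 members were placed by name. Families, target lists and tests were chosen with earlier results of these data known.

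Shares were tested with limma 3.58.1 (variance trend, pseudocount 20 per 1000000 reads, Benjamini-Hochberg over 69 families), with edgeR 4.0.16 and DESeq2 1.42.0 on recovered reads as alternatives. The code was also run on simulated reads drawn independently for each family, which checks the code and not these results. Named families were the 12 highest in loading, peaks and site reads, the 8 highest and 8 lowest differences with separate libraries, and a fixed list; named peaks were the 2 highest matching 1 family alone in each of 8 families, and fixed targets; 1 such peak is not reported here. The highest peak of other families, genes with most families and within-family site types were added after values were seen. Alternatives changed peaks, members, filter, pseudocount, centring, block or library.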

Additional observations from a re-analysis of the deposited data

How the results depend on the processing

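The number of families called stayed within 1.5 times of 57 in every alternative, from 44 (peaks of 1 family) to 61 of 75 (no filter). It was 54 to 57 with 1 library left out. With no filter the split was 30 at the sites and 31 in the loaded miRNA. Each of the 6 families that the filter had left out took a smaller share of site reads than of loaded reads. The replicate block gave 57 called, as did edgeR and DESeq2. Libraries of equal number had correlations of 0.07, 0.22 and -0.20 in their deviations, and only library 2 correlated best with its own number. With 3 libraries of each kind, these values cannot show whether equal numbers pair the libraries. Of the 57 families, 24 were called the same way in every alternative, 17 lost the call in at least 1 and 16 turned direction in at least 1. Leaving out ribosomal RNA peaks, the highest peak of each family or peaks without reads in every library, and placing miR-200a by its name, were chosen after seeing the data. Apart from the common shift described above for ribosomal RNA peaks, the cause of the changes below was not tested.

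Loading against number of peaks gave a rho of 0.570 with peaks of 1 family, 0.472 with 8-mer peaks, 0.509 with peaks read in every library, 0.557 with no filter and 0.481 with the most loaded member alone, and 0.530 to 0.538 with 1 library left out. Loading against site reads gave 0.530 with 8-mer peaks, 0.591 with no filter and 0.488 with the most loaded member, and 0.548 to 0.565 with 1 library left out. The top 10 families held 57.9 to 60.3% of all miRNA reads with 1 library left out. The log2 ratio of 8-mer against 7-mer-m8 reads per peak was -1.38 in WT list peaks, -1.19 with peaks of 1 family, -1.06 to -0.853 with 1 library left out, and turned to 0.77 with medians, 0.47 in 3′ UTR peaks and 0.35 without ribosomal RNA peaks.

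With peaks of 1 family the difference turned to -0.61 for miR-130/miR-301, -0.0238 for miR-103/miR-107, -0.0039 for miR-194-2-3p, -0.79 for miR-16-1-3p, -0.31 for miR-151-3p, -0.97 for miR-183-3p and -0.55 for miR-139-5p. With 8-mer peaks it turned to -3.12 for miR-328-3p (1 such peak), -0.93 for miR-183-3p (2 such peaks), -1.32 for miR-224-5p and -0.0149 for miR-139-5p. For miR-501-5p it was -6.45, a value set by the pseudocount, since this family has 0 such peaks. The difference also turned to 0.48 for miR-23, 0.26 for miR-362-5p (2 such peaks) and 0.17 for miR-25/miR-92. In 3′ UTR peaks it turned to -1.03 for miR-501-5p, 0.33 for miR-23, 0.0829 for miR-194 and 0.00948 for miR-19. In WT list peaks miR-183-3p was at -0.0249. Without the highest peak it was -0.13 for miR-501-5p, 0.15 for miR-23 and 0.0551 for miR-196, and without ribosomal RNA peaks 0.0820 for miR-23. Pulldown depth limits families with few peaks, such as miR-221/miR-222 and miR-425.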
